A study of Homo sapiens with 12 samples.

Results

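PDX1, NKX6-1, MNX1, MAFA, SIX2, SIX3 and SAMD11 are transcriptional regulators associated with pancreatic beta cells, and HHEX and ETV1 are transcription factors found in delta cells. These 9 genes were followed, by their symbols, among the 28278 genes of a raw count table from stem cell-derived alpha cells. The tunicamycin group held 6 samples exposed to 5 uM tunicamycin for 48 h, and the DMSO group held 6 samples exposed to the solvent for the same time. All 12 were cultures in bioreactors, differentiated towards alpha cells from the human embryonic stem cell line HUES-8, so they share 1 genetic background. Tunicamycin blocks N-linked glycosylation and loads the endoplasmic reticulum with unfolded protein. Samples numbered 1 to 3 of both groups formed sequencing batch 1, and those numbered 4 to 6 formed batch 2. The labels name the samples biological replicates without saying whether each was a separate differentiation, so each p-value speaks only of the spread among these samples.

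The islet holds glucagon-secreting alpha cells, insulin-secreting beta cells and somatostatin-secreting delta cells, which descend from common endocrine progenitors. PDX1 and NKX6-1 are homeodomain proteins of the pancreatic progenitor that persist in beta cells, where PDX1 activates the insulin gene. In mice, NKX6-1 represses alpha cell genes in beta cells, and loss of HHEX depletes delta cells. Stem cell-derived alpha cell cultures are known to pass through a stage in which cells make insulin beside glucagon, and to hold other endocrine cells.

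Promoters are shown for the members lower in tunicamycin, in at least one of the fits described further on, that have an entry in the RefSeq promoter table (GRCh38.p14). Each runs 5′ to 3′ from 250 bases before the transcript start to 50 bases after it. These starts are those of RefSeq and can differ from the ends of the GENCODE gene spans given further on. The NKX6-1 window lies wholly outside its GENCODE span, and the SAMD11 window lies wholly inside its own. Capitals mark matches, on either strand, to TGATGNAA (the core of the amino acid response element bound by ATF4 with a partner), CCAAT (the CCAAT box), TAAT (the homeodomain core) or GGCGCC (a palindrome bound by the BMP-activated SMAD1 and SMAD5).
SAMD11, chr1:925481-925780, plus strand: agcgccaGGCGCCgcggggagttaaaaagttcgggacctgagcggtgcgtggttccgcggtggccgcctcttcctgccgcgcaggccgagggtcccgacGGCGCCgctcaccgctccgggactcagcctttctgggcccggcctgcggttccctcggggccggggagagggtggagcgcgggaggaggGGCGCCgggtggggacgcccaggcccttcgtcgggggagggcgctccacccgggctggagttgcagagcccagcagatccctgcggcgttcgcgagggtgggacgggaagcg
NKX6-1, chr4:84499243-84499542, minus strand: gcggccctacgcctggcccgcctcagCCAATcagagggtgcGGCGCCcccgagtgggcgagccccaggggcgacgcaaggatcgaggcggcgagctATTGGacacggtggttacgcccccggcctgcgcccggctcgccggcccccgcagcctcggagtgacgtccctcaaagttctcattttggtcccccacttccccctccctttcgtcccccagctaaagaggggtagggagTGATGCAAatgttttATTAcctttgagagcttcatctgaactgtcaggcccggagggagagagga
SIX2, chr2:45009403-45009702, minus strand: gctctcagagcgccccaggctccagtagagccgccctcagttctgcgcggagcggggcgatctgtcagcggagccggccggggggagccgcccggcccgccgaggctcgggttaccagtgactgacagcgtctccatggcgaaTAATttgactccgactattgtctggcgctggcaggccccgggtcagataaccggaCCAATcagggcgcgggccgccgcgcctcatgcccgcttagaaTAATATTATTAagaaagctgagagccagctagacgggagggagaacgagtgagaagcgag
HHEX, chr10:92689705-92690004, plus strand: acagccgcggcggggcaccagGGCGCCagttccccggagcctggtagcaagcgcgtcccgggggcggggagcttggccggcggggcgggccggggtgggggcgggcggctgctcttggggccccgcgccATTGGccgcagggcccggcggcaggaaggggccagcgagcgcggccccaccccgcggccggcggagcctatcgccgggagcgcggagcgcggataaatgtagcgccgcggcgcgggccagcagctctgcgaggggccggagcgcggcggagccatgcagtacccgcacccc
The motifs were chosen after these sequences had been seen. GGCGCC stood 3 times in the SAMD11 window and once each in those of NKX6-1 and HHEX, and 19.2% of all 35116 windows of the table held it. G and C made up 75% of the SAMD11 window, 65% of that of NKX6-1 and 80.3% of that of HHEX. The share over all windows was not matched for this content. TGATGNAA was found in the NKX6-1 window alone among these, as TGATGCAA 15 to 8 bases before the start, and 3.62% of all windows held it. CCAAT, present in 34.6% of all windows, matched in each window except that of SAMD11. TAAT, present in 50.2% of all windows, matched 4 times in the SIX2 window, where the last pair of matches shares a base, and once in that of NKX6-1. A match describes letters and shows no binding.

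Libraries held 20252508 to 25131093 counts in tunicamycin samples and 17523442 to 28872269 in DMSO samples. The treatment was visible in every pair of equal numbers, as HSPA5, the main chaperone of the endoplasmic reticulum, averaged 5270 ± 1022 CPM (counts per 1000000 counts of the scaled library) in tunicamycin and 845 ± 144 CPM in DMSO (SD, n = 6 each). All 8 listed genes of the unfolded protein response rose. The labelled cell type could be read from GCG, the glucagon transcript, which spanned 44759 to 68819 CPM in tunicamycin and 61679 to 91983 CPM in DMSO. Transcripts of other hormones were present as well. SST, encoding somatostatin, spanned 1413 to 2874 CPM in tunicamycin and 957 to 5210 CPM in DMSO, and INS, encoding insulin, 43.0 to 233 CPM and 54.0 to 339 CPM.

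Tunicamycin lowered 3 of the 9 regulators, PDX1, NKX6-1 and SAMD11, and raised none. No member had an unadjusted p below 0.05 for an increase, and none was called higher by DESeq2 or limma-voom. PDX1 was 2.01-fold lower, NKX6-1 1.61-fold lower and SAMD11 3.03-fold lower than in DMSO. A gene is called here when its adjusted p is below 0.05 in the quasi-likelihood test of edgeR, which took batch into account and adjusted over the 17137 genes tested (Benjamini-Hochberg). Of those genes 3.29% were called lower and 4.56% higher. SIX3 had too few counts for the test. The 8 tested members all had a log2 fold change (tunicamycin over DMSO) below 0, with a median of -0.67 against -0.01 over all tested genes. The members were chosen with earlier results of these data known, so their contrast with all genes only describes them. Deviations from the group and batch means correlated between samples of equal number, more strongly in batch 1 than in batch 2, and with the number as a block 5 members were lower, with SIX2 and HHEX added, where 8.4% of all tested genes were lower. Over the 12 samples, every tunicamycin value lay below every DMSO value for PDX1, NKX6-1 and SAMD11, a pattern seen in 1.3% of tested genes. Within each batch this held for SIX2 and HHEX too, and for 2.84% of tested genes. In a bulk sample, fewer cells of a type and less RNA per cell cannot be told apart.

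**Figure D1:**
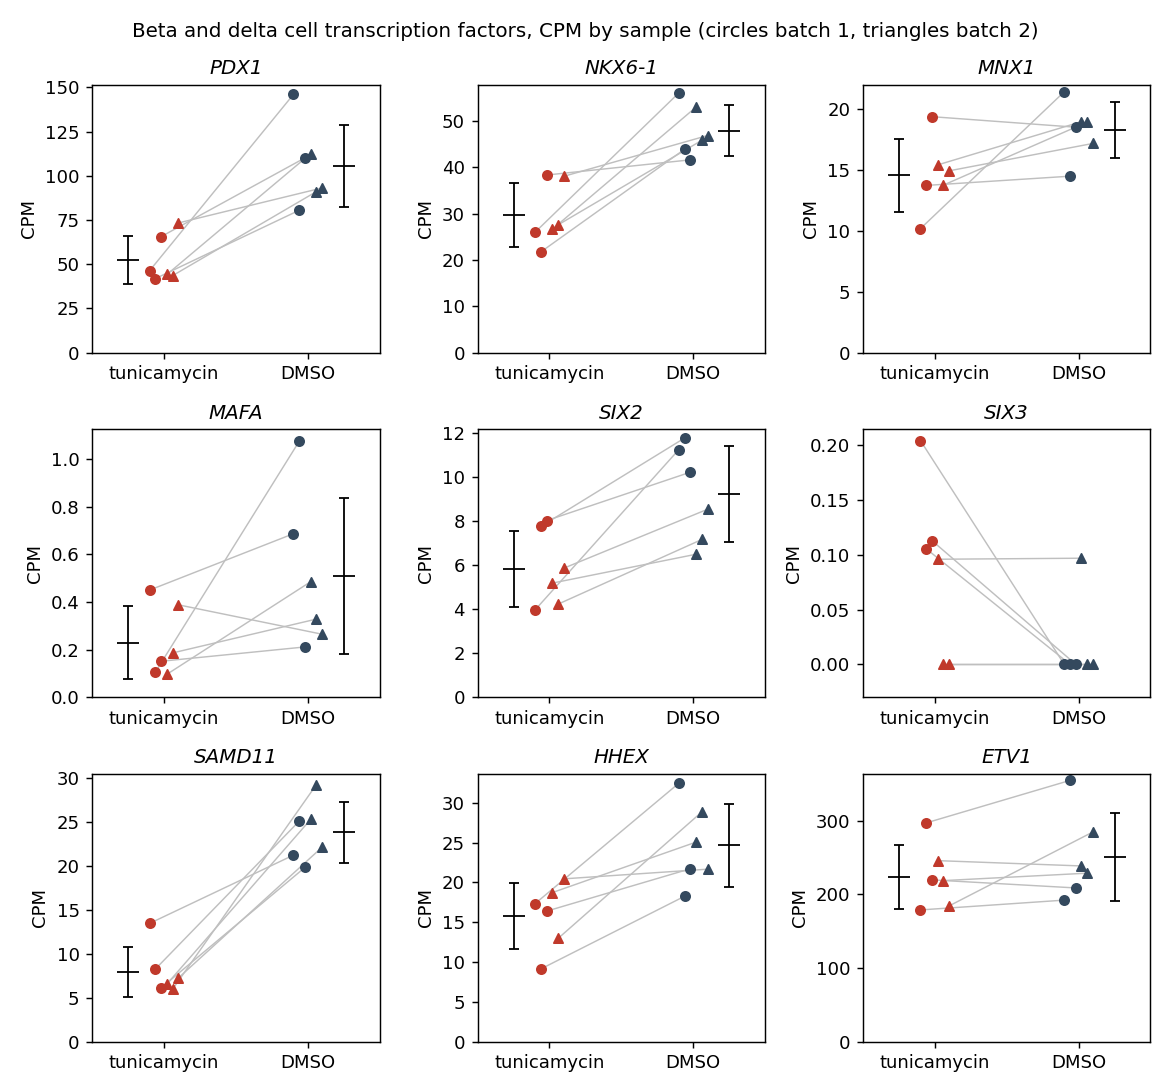
CPM of each factor in every sample, tunicamycin in red on the left and DMSO in dark blue on the right of each panel, with lines joining samples of equal number. Black marks are means with SD of 6 samples (none for SIX3, which has too many zeros), circles are batch 1 and triangles batch 2. The groups are apart for PDX1, NKX6-1 and SAMD11, and overlap in the other panels.

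PDX1 (chromosome 13, 27920020 to 27926231, plus strand, GRCh38) had 41.9, 45.3 and 73.3 CPM as lowest, median and highest value in tunicamycin, against 80.5, 102 and 146 CPM in DMSO. Sample 2 was lowest in both groups, sample 6 was highest in tunicamycin and sample 1 in DMSO, and the groups did not overlap. The mean was 52.5 ± 13.4 CPM in tunicamycin and 106 ± 23.2 CPM in DMSO (SD, n = 6 each). The log2 fold change was -1.01 ± 0.18 (SE; adjusted p = 0.0030, edgeR), with -1.12 in batch 1 and -0.88 in batch 2. All 6 pairs of equal number were lower, from a log2 change of -1.65 in pair 1 to -0.34 in pair 6.

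NKX6-1 (chromosome 4, 84491987 to 84498450, minus strand) had 21.7, 27.1 and 38.3 CPM as lowest, median and highest value in tunicamycin, against 41.6, 46.4 and 56.1 CPM in DMSO. The highest tunicamycin sample and the lowest DMSO sample both carried the number 3, and the groups came close there without overlapping. The mean was 29.7 ± 6.87 CPM in tunicamycin and 47.9 ± 5.54 CPM in DMSO, with a log2 fold change of -0.69 ± 0.14 (adjusted p = 0.0094, edgeR). All 6 pairs were lower, with the smallest log2 changes in pair 3 (-0.12) and pair 6 (-0.30). The batches gave -0.71 and -0.66. A fit chosen after seeing the data took the mean of the mesenchymal markers as a further covariate. There the log2 fold change was -0.60 ± 0.17, with a wider SE, and the call was lost (adjusted p = 0.064, edgeR).

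PDX1 and NKX6-1 followed each other across samples. Among 14049 genes whose mean log2 CPM reached 1, NKX6-1 was the 2nd closest to PDX1 by Pearson correlation over the 12 samples with batch means removed (r = 0.96), and PDX1 was the closest to NKX6-1. Both pairs with the smallest PDX1 changes, 6 and 3, were also the pairs with the smallest NKX6-1 changes. These 12 values share their library and treatment. LARGE2, a glycosyltransferase of dystroglycan, was closest to PDX1 (r = 0.97), and PRKCD, protein kinase C delta, came next after NKX6-1 (r = 0.96). LARGE2 fell by 0.48 and PRKCD by 0.55 on the log2 scale (adjusted p = 0.020 and 0.013, edgeR). After PDX1, the closest to NKX6-1 were LOC101928100 (r = 0.96) and AKAP7, which anchors protein kinase A (r = 0.95).

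SAMD11 (chromosome 1, 923928 to 944581, plus strand), a protein with a sterile alpha motif listed among beta cell regulators in human islets, moved most. Its lowest, median and highest values were 5.99, 6.92 and 13.5 CPM in tunicamycin, against 19.9, 23.7 and 29.3 CPM in DMSO. Tunicamycin sample 1 stood above the other 5, which lay between 5.99 and 8.28 CPM, and still below every DMSO sample. The mean was 7.96 ± 2.84 CPM in tunicamycin and 23.8 ± 3.44 CPM in DMSO, with a log2 fold change of -1.60 ± 0.20 (adjusted p = 0.00020, edgeR). The change was -1.24 in batch 1 and -1.95 in batch 2, a difference that was not called by the interaction test (adjusted p = 1.0, edgeR). The span of SAMD11 shares 378 bases with NOC2L on the other strand, and whether counting used strand is not stated for these counts. NOC2L had a log2 fold change of 0.01 ± 0.09 (adjusted p = 0.97).

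The 3 genes closest to SAMD11 over the 12 samples were ID2 (r = 0.96), ID1 (r = 0.95) and SMAD9 (r = 0.94). ID1 and ID2 are inhibitors of helix-loop-helix factors known as targets of BMP signalling, and SMAD9 is a SMAD of that pathway. All 3 fell, by 1.91 for ID2, 4.02 for ID1 and 1.04 for SMAD9 on the log2 scale (adjusted p = 6.0e-06, 2.1e-06 and 0.00013, edgeR). Since the likeness is measured across both groups, genes with a large change in one direction rank high.

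SIX2 (chromosome 2, 45005161 to 45009430, minus strand), a homeodomain factor tied to functional maturation of human beta cells, had 3.96, 5.52 and 8.02 CPM as lowest, median and highest value in tunicamycin, against 6.49, 9.38 and 11.8 CPM in DMSO. The groups overlapped because the DMSO samples of batch 2, at 6.49 to 8.54 CPM, lay below those of batch 1, and within each batch they were apart. All 6 pairs were lower. The log2 fold change was -0.65 ± 0.19, which missed the threshold (adjusted p = 0.052, edgeR) and passed it with the number as a block (-0.68, adjusted p = 0.019), with DESeq2 (adjusted p = 0.0092) and with limma-voom (adjusted p = 0.032). The closest genes were DIRAS3, a small GTPase (r = 0.94), FOXA2, a pioneer factor of endoderm (r = 0.93), and VTN, encoding vitronectin (r = 0.92).

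SIX3, the neighbour of SIX2 on chromosome 2 at a distance of 59083 bases and tied to adult human beta cells, was nearly absent. It had 5, 2, 3, 2, 0 and 0 counts in tunicamycin samples 1 to 6, against 2 counts in DMSO sample 4 and 0 in the other 5. The summed counts of 12 and 2 gave a ratio of 6.31 per library size, with a 95% counting interval of 1.40 to 58.0 that ignores the spread between samples. Without the filter on low counts the adjusted p was 0.46. A count of 0 allows up to 0.103 to 0.158 CPM, depending on the library.

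MAFA, a basic leucine zipper factor of mature beta cells that activates the insulin gene, lies on chromosome 8 and was close to the detection limit. It had 2 to 11 counts per sample in tunicamycin and 4 to 29 in DMSO. The level spanned 0.096 to 0.45 CPM, with a median of 0.168, in tunicamycin and 0.21 to 1.07 CPM, with a median of 0.406, in DMSO. The groups overlapped and 5 of 6 pairs were lower. The log2 fold change was -1.09 ± 0.52 with a 95% interval of -2.22 to 0.03 (adjusted p = 0.24, edgeR). Counts were low, and the spread between samples was wide, with a coefficient of variation of 66.1% in tunicamycin and 64.3% in DMSO.

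MNX1 (chromosome 7, 156994051 to 157010651, minus strand), a homeodomain factor needed for beta cell development, had 10.2, 14.3 and 19.4 CPM as lowest, median and highest value in tunicamycin, against 14.5, 18.7 and 21.4 CPM in DMSO. The groups overlapped, and pair 3 went against the other 5. The log2 fold change of -0.32 ± 0.15 did not pass (adjusted p = 0.22, edgeR), and its 95% interval ran from -0.65 to -0.0026. The antisense transcript MNX1-AS2, inside the MNX1 span, had a log2 fold change of -0.63 ± 0.42 (adjusted p = 0.42), and whether their reads were counted apart by strand is not stated. The closest genes were PCDHGA8 (r = 0.92), LINC00543 (r = 0.92) and GSTM4 (r = 0.90).

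HHEX (chromosome 10, 92689951 to 92695646, plus strand), a homeodomain factor of delta cells, had 9.13, 16.9 and 20.4 CPM as lowest, median and highest value in tunicamycin, against 18.3, 23.4 and 32.4 CPM in DMSO. Sample 2 was lowest in both groups, and its DMSO value fell below the highest tunicamycin value, that of sample 6. All 6 pairs were lower, with a log2 change of only -0.08 in pair 6. The log2 fold change was -0.65 ± 0.19 and missed the threshold (adjusted p = 0.053, edgeR). It passed with the number as a block (-0.66, adjusted p = 0.0078) and with DESeq2 (adjusted p = 0.014), and was -0.39 with the mesenchymal covariate (adjusted p = 0.35). The closest genes were DLK1, a Notch ligand relative (r = 0.97), EFNA4, an ephrin (r = 0.97), and MFGE8 (r = 0.97).

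ETV1 (chromosome 7, 13891228 to 13991425, minus strand), an ETS family factor, had 179, 219 and 297 CPM as lowest, median and highest value in tunicamycin, against 192, 234 and 354 CPM in DMSO. Samples 1 were lowest and samples 2 highest in both groups, and the groups overlapped almost wholly. The mean was 224 ± 43.5 CPM in tunicamycin and 251 ± 59.6 CPM in DMSO, with a log2 fold change of -0.17 ± 0.16 and a 95% interval of -0.52 to 0.18 (adjusted p = 0.61, edgeR). The interval excludes a log2 change of -1. The estimate was -0.03 without DMSO sample 2, -0.27 without tunicamycin sample 2 and -0.43 with the mesenchymal covariate (adjusted p = 0.11, edgeR), and it ranged from -0.27 to -0.03 when single samples were left out. The closest genes were ANKRD13C (r = 0.97), NNT (r = 0.97) and CERT1 (r = 0.96), none of them called.

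**Figure D2:**
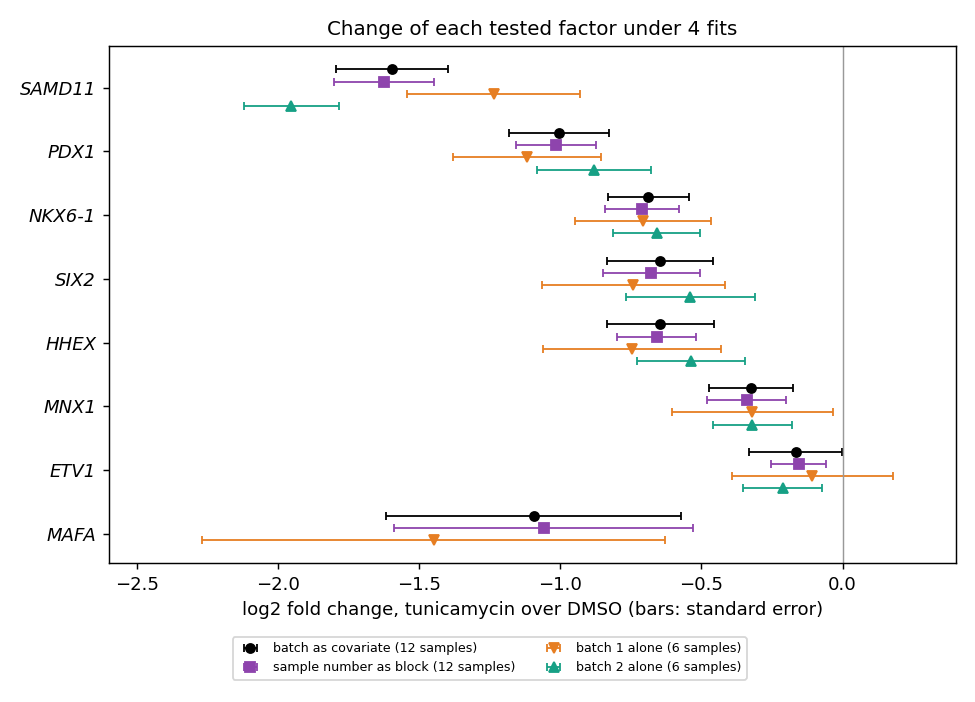
Log2 fold change of tunicamycin over DMSO for the 8 tested factors, as points with standard errors, under the fit with batch, the fit with the sample number as a block, and in each batch alone. Every point lies left of 0, and batch 2 has no MAFA point because its counts there were too low to test.

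In batch 1 alone edgeR called no member, where 57 genes were called in all and 0.0354% of the genes tested were lower. The unadjusted p there was 0.0024 for PDX1, 0.018 for NKX6-1 and 0.0035 for SAMD11 (edgeR). In batch 2 alone all 3 were called lower, as were 1.23% of the genes tested there. No member was called by the interaction test of edgeR for a difference in response between the batches. None had an unadjusted p below 0.05 (the smallest was 0.067 for SAMD11, edgeR), and none was called with the other scaling or limma-voom. Among all genes 0 were called by edgeR and 169, or 0.99% of those tested, had an unadjusted p below 0.05. With 3 samples per group and batch the test could hardly call any gene, so it does not show that the batches agree.

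Levels of different genes were compared as CPM per kilobase of exon. In DMSO the order was PDX1 (42.2 ± 9.29), ETV1 (26.1 ± 6.20), NKX6-1 (15.5 ± 1.80), HHEX (9.77 ± 2.07), SAMD11 (5.72 ± 0.83), MNX1 (4.34 ± 0.55), SIX2 (4.19 ± 0.99), MAFA (0.203 ± 0.130) and SIX3. This order is one of means. Values of PDX1 and ETV1 overlapped between DMSO samples, as did those of SAMD11, MNX1 and SIX2. MNX1 and SIX2 did not differ beyond their spread. In tunicamycin ETV1 (23.3 ± 4.52) and PDX1 (21.0 ± 5.38) stood within their spread at the top. The values of NKX6-1 (9.63 ± 2.22) and HHEX (6.27 ± 1.64) overlapped between samples, with NKX6-1 above HHEX within every tunicamycin sample. MNX1 (3.46 ± 0.71), SIX2 (2.65 ± 0.79) and SAMD11 (1.91 ± 0.68) overlapped too.

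**Figure D3:**
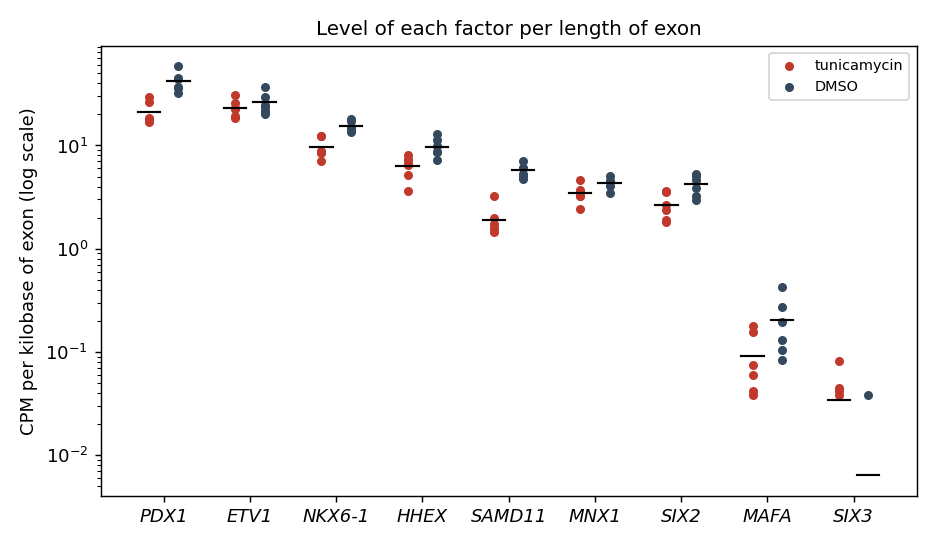
CPM per kilobase of exon (log scale) of each factor, with 1 point per sample, tunicamycin in red on the left of DMSO in dark blue, and black lines at the means. Samples with 0 counts, 2 in tunicamycin and 5 in DMSO for SIX3, cannot be drawn on this axis, though the means include them.

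Set against the transcript of the hormone linked to its cell type, in the same library, no factor changed past the threshold. Whether a factor's reads came from cells making that hormone was not tested. With batch means removed and the treatment difference left in, PDX1 correlated with INS at r = 0.35 and HHEX with SST at r = -0.04. With the treatment means removed as well, r was 0.30 for PDX1 with INS and 0.23 for HHEX with SST. The hormones varied widely between samples, so a missed threshold does not show that a factor kept step with its hormone. The log2 ratio of beta cell factors to INS and of delta cell factors to SST was compared by an exact two-sided permutation test of treatment within batches, in which the smallest possible p is 0.005, with adjustment over the 8 ratios. The PDX1 to INS ratio had a median of 0.398, ranging from 0.227 to 1.52, in tunicamycin and a median of 0.645, ranging from 0.268 to 2.04, in DMSO. The ranges overlapped, while all 6 pairs were lower, with a mean log2 difference of -0.75 (exact p = 0.075, adjusted 0.20). For SAMD11 the difference was -1.37 (exact p = 0.020, adjusted 0.16), and without DMSO sample 1 it was -1.71 and passed (adjusted exact permutation p = 0.040). For HHEX over SST it was -0.86 (exact p = 0.050, adjusted 0.20), with -1.33 in batch 1 and -0.38 in batch 2. The other differences were -0.44 for NKX6-1, -0.41 for SIX2, -0.91 for MAFA, -0.07 for MNX1 and -0.35 for ETV1, with adjusted exact permutation p-values from 0.27 to 0.855. When single samples were left out, they ranged from -0.71 to -0.29 for NKX6-1, -0.74 to -0.12 for SIX2, -1.15 to -0.49 for MAFA and -0.53 to -0.12 for ETV1.

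INS itself had a median of 140 CPM in tunicamycin and 180 CPM in DMSO, with a log2 fold change of -0.43 ± 0.33 (adjusted p = 0.49, edgeR). SST had a median of 1995 CPM in tunicamycin and 1460 CPM in DMSO, with a log2 fold change of 0.10 ± 0.28 (adjusted p = 0.88, edgeR). IAPP, encoding the beta cell peptide amylin, fell, with a log2 fold change of -0.80 ± 0.22 (adjusted p = 0.045, edgeR; 0.050 with limma-voom). Its change was -0.29 in batch 1 and -1.29 in batch 2.

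**Figure D4:**
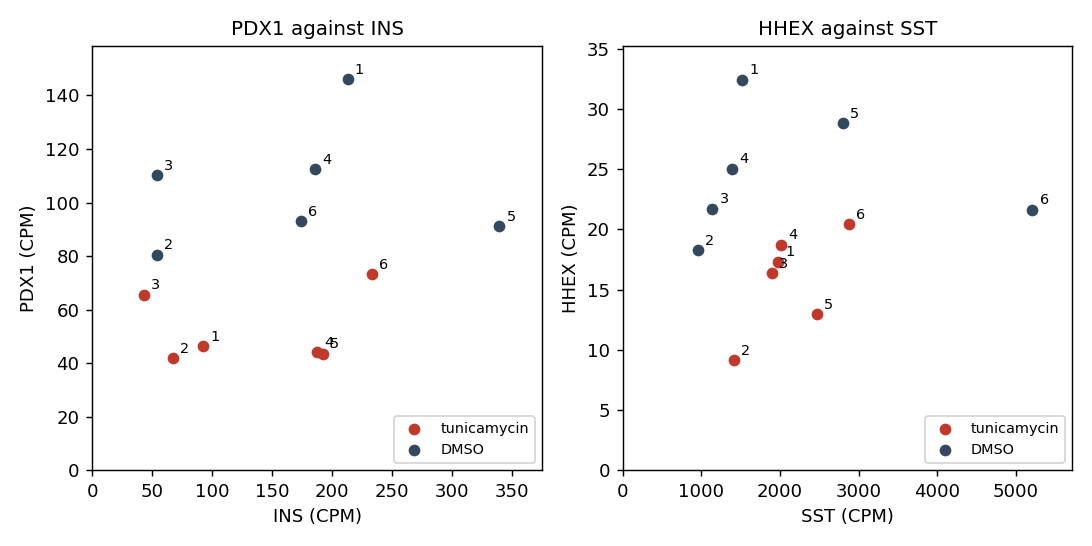
PDX1 against INS and HHEX against SST, in CPM, with 1 point per sample labelled by its number, tunicamycin in red and DMSO in dark blue. All tunicamycin points lie below all DMSO points for PDX1, whatever their INS level, while SST spans 957 to 5210 CPM in DMSO against 1413 to 2874 CPM in tunicamycin.

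The other genes of both cell types did not move as one. Of 23 tested beta cell genes 3 fell and 1 rose, with a median log2 fold change of -0.19. IAPP, TGFBR3, a TGF-beta co-receptor (-0.64), and HADH, a mitochondrial dehydrogenase (-0.43), fell, while ERO1B, an oxidase of protein folding in the endoplasmic reticulum, rose (0.83). With the number as a block 6 fell and 4 rose. Of 19 tested delta cell genes 2 fell and 1 rose, with a median of 0.10. CALB1, encoding the calcium-binding protein calbindin, fell to 11.6 ± 5.49 CPM in tunicamycin, against 60.2 ± 11.3 CPM in DMSO (log2 fold change -2.38, adjusted p = 4.4e-05, edgeR), and CRH fell by 0.92 on the log2 scale. SEC11C, a subunit of the signal peptidase, rose (1.00). With the block 3 fell and 5 rose.

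Transcription factors of other classes differed in direction. Among the alpha cell factors, whose median log2 fold change was -0.17, FEV, an ETS family factor, fell (-0.64 ± 0.16, adjusted p = 0.026, edgeR). Of 14 factors shared by islet cells 3 rose and none fell by edgeR, with a median of 0.24, while 1 had an unadjusted p below 0.05 for a decrease and DESeq2 called 1 lower. PAX6 had 404 ± 58.9 CPM in tunicamycin and 220 ± 50.7 CPM in DMSO (log2 fold change 0.88, adjusted p = 0.0048, edgeR), and RFX6 (0.90) and MLXIPL (0.79) rose likewise. Of 18 progenitor factors 7 fell and none rose by edgeR, with a median of -0.43, and with the block 11 fell. No progenitor factor had an unadjusted p below 0.05 for an increase, and DESeq2 and limma-voom called none higher. Among them were PTF1A, a factor of the early pancreas (-1.51), PAX4, a factor of the beta and delta lineage in mice (-1.31), GATA6 (-0.97) and FOXA2 (-0.38). The differences between lists were not tested.

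Of 17 close relatives of the members 11 could be tested. MAFF, a small MAF protein (0.77), ETV5, a relative of ETV1 (0.69), and MAFK (0.49) rose, and CDX2, a homeodomain factor of the gut (-1.22), fell.

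**Figure D5:**
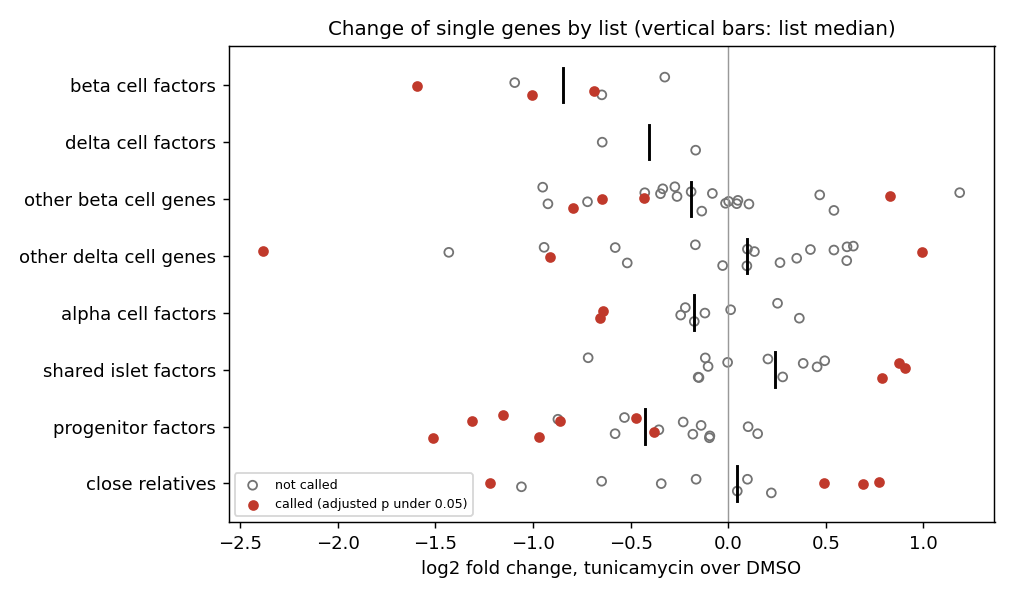
Log2 fold change of tunicamycin over DMSO for each tested gene, 1 point per gene in rows by list, filled where the adjusted p was below 0.05, with a black bar at each list's median. The beta cell factors have a median of -0.85, the progenitor factors -0.43 and the shared islet factors 0.24.

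Marker transcripts of some other cell types fell in the same contrast, while in other marker lists edgeR called none. Each sum below follows its most abundant transcripts and is no measure of cell number. Ductal and acinar markers summed to 166 to 465 CPM in tunicamycin and 459 to 757 CPM in DMSO, with 4 of 11 lower, among them CFTR (-1.43) and KRT19 (-0.77). Liver and gut markers summed to 636 to 824 CPM in tunicamycin and 781 to 1305 CPM in DMSO, with 5 of 10 lower. Their largest means were those of SERPINA1 (474 CPM in tunicamycin and 614 CPM in DMSO), which was not called, and VIL1 (218 and 323 CPM), which fell. Endothelial markers summed to 35.8 to 91.7 CPM in tunicamycin and 71.9 to 175 CPM in DMSO, with 2 of 7 tested lower, CDH5 (-2.02) and PECAM1 (-2.13). EGFL7, which was not called, had the largest mean of these (52.8 CPM in tunicamycin and 72.8 CPM in DMSO). Mesenchymal markers summed to 821 to 1437 CPM in tunicamycin and 739 to 2400 CPM in DMSO, with 0 of 10 called by edgeR, 5 with an unadjusted p below 0.05, 1 called by DESeq2, 0 by limma-voom and 8 lower with the block. VIM had the largest mean of that list (840 CPM in tunicamycin and 796 CPM in DMSO). Heart muscle markers summed to 10.6 to 936 CPM in tunicamycin and 9.77 to 2096 CPM in DMSO, with 0 of 10 called by edgeR, DESeq2 or limma-voom, 2 with an unadjusted p below 0.05 and 2 lower with the block. Enterochromaffin markers summed to 234 to 593 CPM in tunicamycin and 422 to 751 CPM in DMSO, with 2 of 6 tested lower, DDC (-0.69) and FEV. Neural and motor neuron markers, of cells that also express MNX1, summed to 180 to 411 CPM in tunicamycin and 185 to 391.7 CPM in DMSO. Of the 7 tested, 0 were called by edgeR, DESeq2 or limma-voom, 0 had an unadjusted p below 0.05 and 1 fell with the block. TUBB3 (140 CPM in tunicamycin and 197 CPM in DMSO) and ELAVL4 (52.9 and 46.3 CPM) had the largest means of this list. The motor neuron markers OLIG2, ISL2, LHX3 and CHAT averaged only 0.06 to 0.25 CPM and were not tested. No marker was at 0 in all samples. Without both samples numbered 5, which hold the most heart muscle transcripts, the same count of 3 members was called, and in the fit with the mesenchymal covariate the count was 2, PDX1 and SAMD11. The choice of both fits followed a look at the data. The mesenchymal markers themselves were lower in tunicamycin, with a median log2 fold change of -1.27. The fit with their mean therefore cannot tell cell composition and treatment apart. The part of other cell types in the members' changes was not tested.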

How the data were processed

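RNA of 12 samples, 6 exposed to tunicamycin and 6 to DMSO, was sequenced in bulk. The authors deposited 1 table of raw counts per gene symbol, without normalization. CPM (counts per 1000000 scaled counts) were computed from it. The submitters' processing notes name cutadapt 4.4 and HISAT2 2.1.0 with the GRCh38 build, and featureCounts 2.0.6. Whether counting used strand, and on which annotation, is not given in the sources that were used here. Gene positions and exon lengths come from GENCODE release 29.

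Counts were analysed with edgeR 4.0.16 in R 4.3.3. The expression filter kept 17137 genes and removed 11141, and libraries were scaled with TMM factors. The quasi-likelihood test compared tunicamycin with DMSO with batch as a covariate, adjusted over all tested genes with a threshold of 0.05. All tests are two-sided, and intervals are at 95%. Those made from counts cover counting error only. Pairs of samples within a group differed beyond sampling noise (10.9 to 99.6 chi-square units per gene). DESeq2 1.42.0, limma 3.58.1, other scaling, filters and sample subsets served as alternatives.

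Same-numbered samples deviated together from their group and batch means, with correlations across genes of 0.505, 0.579, 0.519, 0.12, 0.184 and 0.182 for numbers 1 to 6. Numbers 4 and 5 correlated more with a sample of a different number (0.196 and 0.273). What a number marks is not stated in the labels. As each same-number value exceeded 0.1, fits blocked by number are given where they change a call. The named genes are the 9 members, up to 4 called genes per list whose mean log2 CPM reached 1, the hormones, the 3 genes most like each member, and check genes. Members and lists were chosen with earlier results of these data known. Log2 CPM used a prior count of 2. Some genes of the lists are not reported here.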

Additional observations from a re-analysis of the deposited data

Results flagged for a closer look

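In groups of 6, a sample was marked when its gap to the nearest other sample as a share of the group's range exceeded Dixon's 95% critical value, which chance gives in about 1 in 20 groups, and 4 of 38 groups looked at were marked. Tunicamycin sample 1 had the highest SAMD11 level of its group, 13.5 CPM, with a gap of 0.694 of the range. TNNT2, encoding heart muscle troponin T, was highest in the samples numbered 5, with 161 CPM in tunicamycin and 487 CPM in DMSO. MNX1-AS2, antisense to MNX1, was highest in DMSO sample 3 with 2.63 CPM.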

How the results depend on the processing

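The count of members called, 3 with batch as covariate, was 5 with the replicate block, 5 with DESeq2 and 0 in batch 1 alone, and 3 to 4 when single samples were left out. Of all genes, 1344 were called, against 2967 with the replicate block, 2100 with DESeq2, 57 in batch 1 alone, 654 in batch 2 alone, 685 without both samples numbered 5, 841 with the mesenchymal mean as a covariate and 791 to 1399 when single samples were left out. The fits without samples numbered 5, with the mesenchymal covariate and with a filter by the size of the treatment groups were chosen after seeing the data. PDX1, NKX6-1 and SAMD11 were lower in each of 24 alternatives and lost their call in batch 1 alone, NKX6-1 also with the mesenchymal covariate. SIX2 passed in 5 and HHEX in 4 of 24. For SIX2 these were the block, DESeq2, limma-voom, RLE scaling and the filter by group size, and for HHEX the block, DESeq2, no filter and without DMSO sample 2 (adjusted p = 0.042, edgeR). MNX1 and ETV1 passed in none. Of the ratios to the hormone transcript 0 to 1 passed when single samples were left out. The MNX1 ratio changed sign to 0.11 with INS and IAPP together as denominator, and ranged from -0.34 to 0.17 when single samples were left out. The sign-flip test over the 6 pairs (the block for the ratios) cannot go below an unadjusted p of 0.03125, which PDX1 over INS reached with 6 of 6 pairs lower (adjusted exact p = 0.17), so it could hardly pass after adjustment over 8 ratios. The cause of these differences was not tested. MAFA and SIX3 had few counts.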
